A study of Mus musculus with 2 samples.

Results

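The somatostatin-expressing islet cells that carried almost no insulin RNA were described here, in Tg7 and in Wild-type islets. They were chosen from droplet-based single-cell RNA-seq counts as barcodes with at least 1000 unique molecular identifiers (UMIs, counted RNA molecules), with mitochondrial genes at 20% of UMIs or less, Sst at 1% of UMIs or more, and Ins1 and Ins2 together under 3% of UMIs. The rule found 70 such Sst cells among 1761 kept barcodes, 25 in the Tg7 library and 45 in the Wild-type library. Tg7 mice overexpress miR-7a2 in β-cells and develop diabetes with loss of β-cell identity. Both libraries came from islets of 12-week-old males on the C57Bl6 strain, 1 library of Tg7 mice and 1 of Wild-type littermates. How many mice went into a library is not stated by the labels or methods read here. The deposited tables count a tdTomato reporter in both libraries, which in this study's lines was switched on in β-cells by a Cre under the rat insulin promoter.

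With 1 library per group no difference between Tg7 and Wild-type mice could be tested. Where a range in brackets follows a share or a ratio it is an exact 95% interval that covers counting error only, and it leaves out variation between mice. Limits set from a count of 0 use 3 counts of the total and bound cells with a UMI, not cells that express the gene. In addition, cells of 1 library are not replicates of a genotype.

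δ-cells are the somatostatin-secreting cells of the islet, and the peptide restrains both insulin and glucagon release from neighbouring β- and α-cells through somatostatin receptors. Hhex is the homeobox factor that maintains δ-cell identity in mice. Transcription of Sst responds to cyclic AMP through CREB, which binds the cyclic AMP response element close upstream of the gene.

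That element is shown because Sst defines these cells. It lies in the 100 bases before the annotated Sst start (RefSeq, GRCm38.p6, minus strand, chr16:23890845-23890944), with the palindrome TGACGTCA in capitals.
Sst promoter: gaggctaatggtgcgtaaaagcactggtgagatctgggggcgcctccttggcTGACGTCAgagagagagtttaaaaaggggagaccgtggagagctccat
The letters TGACGTCA, which read the same on both strands, occur in 508 of 32851 promoter windows of 250 bases in RefSeq (1.55%). Promoter windows were found for 3 of the 5 marker genes Sst, Hhex, Rbp4, Ly6h and Arg1, and only that of Sst held the letters. The mature miRNA raised in the β-cells of Tg7 mice is given as well, from RefSeq, with its seed (bases 2 to 8) in capitals.
mmu-miR-7a-5p: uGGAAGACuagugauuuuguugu

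The Tg7 library held 1123 barcodes with 29931777 UMIs, of which 1006 barcodes were kept, and the Wild-type library held 855 barcodes with 30829078 UMIs, of which 755 were kept. No barcode was shared. Sst cells were shallow: the median Tg7 cell had 7397 UMIs (1310 to 34636) and the median Wild-type cell 9228 (4663 to 41141). Insulin cells had a median of 27463 UMIs in the Tg7 and 49671 in the Wild-type library, and Gcg cells 15589 in the Tg7 and 15835.5 in the Wild-type library.

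Sst cells made up 2.49% of kept Tg7 barcodes (exact interval 1.61 to 3.65) and 5.96% of kept Wild-type barcodes (4.38 to 7.89). Of all cells with Sst at 1% or more, 25 of 85 in Tg7 (29.4%, 20 to 40.3) and 45 of 64 in Wild-type (70.3%, 57.6 to 81.1) were free of insulin. The remaining 60 Tg7 and 19 Wild-type cells carried insulin above the limit. Among insulin-free cells the Sst limit fell in a gap, while among cells with insulin the Sst share ran on through 1% without a gap, so the shares of all Sst cells rest on that limit. The Sst cell with the least Sst held 1.92% of UMIs in Tg7 and 2.05% in Wild-type, while the highest insulin-free cell outside the rule held 0.0947% in Tg7 and 0.0394% in Wild-type. The highest insulin share inside was 0.137% in Tg7 and 1.51% in Wild-type, and the lowest among cells with Sst but too much insulin was 3.95% in Tg7 and 7.72% in Wild-type.

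**Figure D1:**
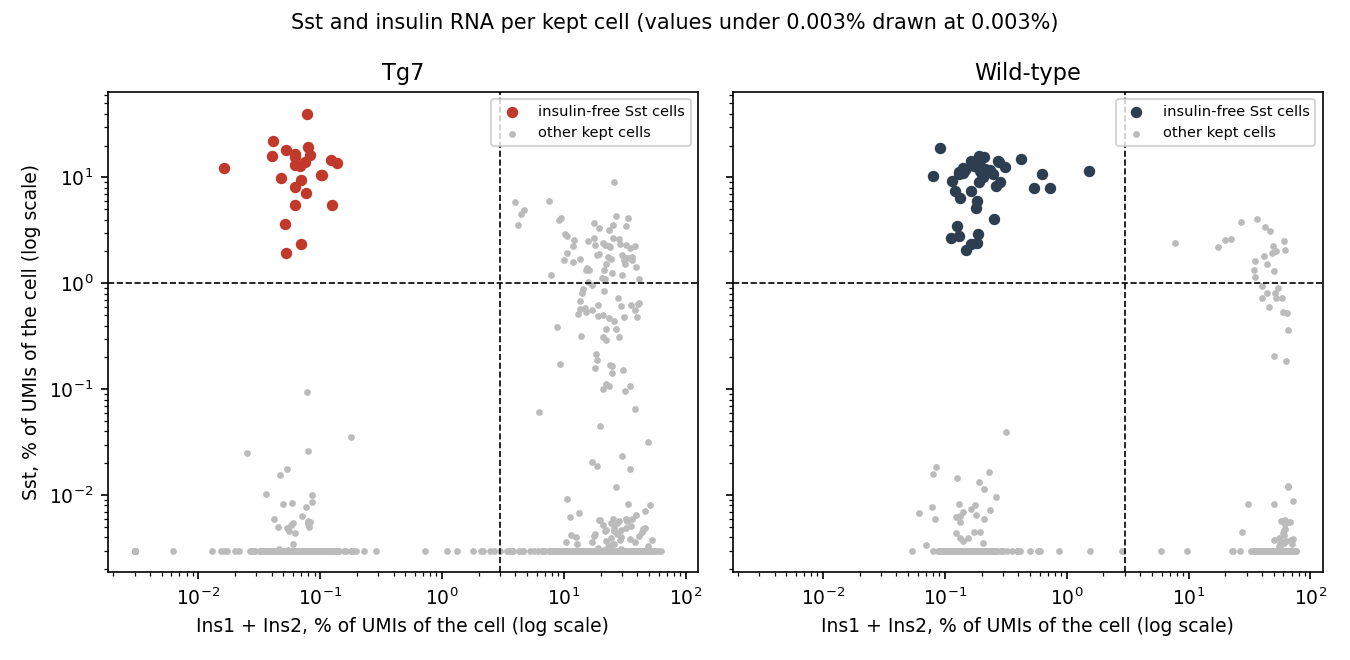
Sst (vertical axis) against Ins1 plus Ins2 (horizontal axis), each as % of the UMIs of a cell on a log scale, for every kept cell of the Tg7 (left) and Wild-type (right) library, with dashed lines at the limits of 1% and 3%. The 25 Tg7 and 45 Wild-type Sst cells form a group at the upper left, and among cells left of the insulin limit none lies just below 1.92% Sst in Tg7 and 2.05% in Wild-type, while cells with insulin run on through the Sst limit.

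Insulin RNA was low in Sst cells by the rule that chose them, and Gcg cells were chosen without insulin as well. Below the limit of the rule, the pooled share in Sst cells lay between those of endothelial cells and macrophages in each library. Whether Sst cells make insulin RNA was not tested. Ins1 and Ins2 were together 0.0691% of the UMIs of Sst cells in Tg7 and 0.217% in Wild-type. In Tg7 the same share was 0.0713% in macrophages, 0.0399% in endothelial cells and 0.0620% in Gcg cells. In Wild-type it was 0.313% in macrophages, 0.159% in endothelial cells and 0.172% in Gcg cells. Insulin RNA was thus at most 0.313% of UMIs in these groups, and it was higher in Wild-type than in Tg7 in all 4. The tdTomato reporter was almost absent too, with 1 UMI in 1 of 25 Tg7 Sst cells and 0 of 45 Wild-type Sst cells, a limit of 6.67%. Among insulin cells, which were deeper, 151 of 486 in Tg7 (31.1%) and 252 of 480 in Wild-type (52.5%) had a tdTomato UMI. As a share of all UMIs tdTomato was 0.00131% in Tg7 and 0.00152% in Wild-type insulin cells. In Tg7 Sst cells it was 0.000378%, a share that rests on 1 UMI.

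By their markers most of the cells matched the label of δ-cells. The 19 δ-cell markers other than Sst summed to 74.7 UMIs per 10000 non-hormone UMIs in Tg7 Sst cells (22.9 to 229 over cells) and to 70.2 in Wild-type Sst cells (24.8 to 218). Most of this was Rbp4, with 951 of the 1326 marker UMIs in Tg7 and 2311 of 3369 in Wild-type. Rbp4 was also found in Gcg cells, as given below. Levels on this scale leave out the 7 hormone genes Ins1, Ins2, Gcg, Sst, Ppy, Pyy and Iapp from the total. The same sum was 18.4 in Gcg cells, 14.8 in insulin cells and 8.98 in endothelial cells of the Tg7 library, and 18.8, 7.52 and 12.3 in those cells of the Wild-type library. Of the 19 markers, Lepr, Erbb4, Prg4 and Bche had no UMI in the Sst cells of either library. Casr was also at 0 in Tg7 Sst cells. The 16 β-cell markers other than insulin summed to 2.48 in Tg7 and 4.77 in Wild-type Sst cells, against 14.4 and 81.7 in insulin cells of the same libraries. Of the 16, 6 had a UMI in Tg7 and 11 in Wild-type Sst cells. Slc30a8 gave 13 of their 44 UMIs in Tg7 and 117 of 229 in Wild-type. The defining β-cell genes Mafa and Ucn3 were at 0 in the Sst cells of both libraries, and also in Tg7 Gcg cells. The 10 endothelial markers summed to 0.676 in Tg7 and 0.271 in Wild-type Sst cells, with 8 and 7 of 10 at 0, and the 10 macrophage markers to 0.789 and 1.23, with 9 and 8 of 10 at 0. The 8 ductal markers summed to 8.34 in Tg7 and 2.42 in Wild-type. Of their 148 Tg7 UMIs, 82 lay in 2 Ppy-rich cells described below. Without these and the Gcg-rich cells the ductal sums were 4.66 in Tg7 and 3.14 in Wild-type. The 11 α-cell markers other than Gcg summed to more than the δ-cell markers, 93.1 in Tg7 and 210 in Wild-type. Their medians over cells were 6.82 and 5.30, since most of their UMIs lay in the Gcg-rich cells described below. Markers of γ-cells, the islet cells that make Ppy, were also highest in Sst cells among the endocrine classes compared. The 5 γ-cell markers other than Ppy summed to 14.8 in Tg7 and 12.1 in Wild-type Sst cells. In Gcg cells they summed to 10.1 and 8.88, and in insulin cells to 5.57 and 3.39. No class of γ-cells was compared.

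Cells with both insulin and Sst had lower δ-cell marker levels on this scale, but not fewer δ-cell marker UMIs per cell. Their sum over the 19 markers was 39.2 in the 60 Tg7 cells and 37.1 in the 19 Wild-type cells. They held a median of 747.5 Sst UMIs per cell in Tg7 and of 958 in Wild-type, where the insulin-free Sst cells had 960 in Tg7 and 989 in Wild-type.

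Sst itself, which chose the cells and is described without a test, took 10.1% of all UMIs of the Tg7 Sst cells and 7.54% of those of the Wild-type Sst cells. Over single cells the share had a median of 12.8% in Tg7 (1.92 to 39.9) and of 10.7% in Wild-type (2.05 to 18.8). The number of Sst UMIs per cell differed little, with medians of 960 in Tg7 and 989 in Wild-type, so the Tg7 share was higher where fewer UMIs were read per cell. Scaled to non-hormone UMIs, Sst was 1.41 times the Wild-type level in Tg7 (1.39 to 1.43). Of the 26685 Sst UMIs of Tg7 Sst cells, 4081 lay in 1 cell, the one with a share of 39.9%.

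The rule set no limit on other hormones, and the Sst cells differed in them. Gcg, the glucagon gene of α-cells, was at 1% of UMIs or more in 3 of 25 Tg7 Sst cells (12%, 2.55 to 31.2) and in 14 of 45 Wild-type Sst cells (31.1%, 18.2 to 46.6). In those cells Gcg made up 9.84 to 30.3% of UMIs in Tg7 and 7.23 to 36.0% in Wild-type, whereas the median over all Sst cells was 0.0172% in Tg7 and 0.0138% in Wild-type. A further 2 Tg7 cells had little Gcg but held Ppy, the pancreatic polypeptide gene of γ-cells, at 26.4% and 33.1% of UMIs.

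The Gcg-rich Sst cells also carried RNA of other α-cell markers, most of it Ttr. Their 11 α-cell markers other than Gcg summed to 361 per 10000 non-hormone UMIs in Tg7 (11.9 to 678 over cells) and to 368 in Wild-type (46.5 to 697), against 743 and 611 in the Gcg cells of those libraries. Over all Sst cells Ttr gave 1525 of the 1653 UMIs of these 11 markers in Tg7 and 9747 of 10086 in Wild-type. Gria3, Fap, Wnk3 and Sstr2 had no UMI in the Gcg-rich Tg7 cells, and Fap none in those of Wild-type. The lowest Gcg-rich Tg7 cell, at 11.9, lay within the range of the Tg7 Sst cells low in Gcg and Ppy, which reached 21.8. The δ-cell sums of the Gcg-rich cells were 50.9 in Tg7 and 49.4 in Wild-type. They were deep, with a median of 19565 UMIs in Tg7 (17733 to 22412) and 28155 in Wild-type (15134 to 41141). The 2 Ppy-rich Tg7 cells were deeper still than any Gcg-rich Tg7 cell, at 33248 and 34636 UMIs. The remaining Sst cells had a median depth of 6478.5 UMIs in Tg7 and 8136 in Wild-type. Scrublet, a doublet caller, marked 14 of the kept Tg7 and 6 of the kept Wild-type barcodes, and none was an Sst cell. Its median score was 0.0142 in the Gcg-rich Tg7 cells and 0.0116 in the Gcg-rich Wild-type cells, against 0.00574 and 0.00115 in the Sst cells low in Gcg and Ppy. Over all kept barcodes the median was 0.0142 in Tg7, equal to that of the Gcg-rich cells, and 0.00910 in Wild-type. Whether the Gcg-rich barcodes hold 1 cell or more was not tested.

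Because these cells took different shares of the 2 libraries, the main results below are also given for the 51 Sst cells with Gcg under 1% and Ppy under 20% of UMIs, 20 in Tg7 and 31 in Wild-type. They are called low-Gcg Sst cells here, and their limits were chosen after the data were seen. Their δ-cell marker sum was 101 in Tg7 and 97.7 in Wild-type, and their α-cell marker sum 7.14 in Tg7 and 3.28 in Wild-type. Their Sst share was 15.9% of UMIs in Tg7 and 12.2% in Wild-type.

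**Figure D2:**
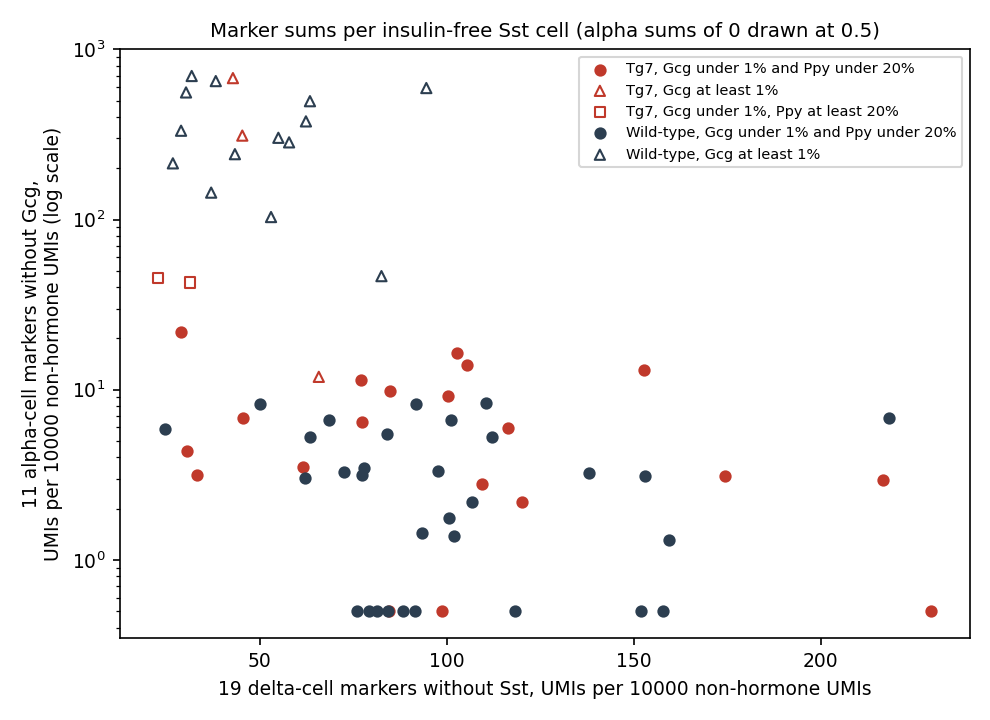
Sum of 11 α-cell markers without Gcg (vertical, log scale) against the sum of 19 δ-cell markers without Sst (horizontal), both in UMIs per 10000 non-hormone UMIs, with 1 point per Sst cell and Tg7 listed before Wild-type. The 3 Tg7 and 14 Wild-type cells with Gcg at 1% or more (triangles) reach α-cell sums of 678 in Tg7 and 697 in Wild-type, and the 2 Tg7 cells rich in Ppy are drawn as squares.

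Hormone genes of other islet cells were found in most Sst cells. Ppy was at 1% of UMIs or more in 15 of 25 Tg7 Sst cells (60%, 38.7 to 78.9) and in 28 of 45 Wild-type Sst cells (62.2%, 46.5 to 76.2), with a median share of 2.30% in Tg7 and 1.65% in Wild-type. Ppy was spread over a wide range rather than split into a high and a low class. It was under 0.1% in 3, from 0.1 to 1% in 7, from 1 to 5% in 8 and at 5% or more in 7 of the Tg7 cells, and in 5, 12, 21 and 7 of the Wild-type cells. In endothelial cells Ppy made up 0.00499% of UMIs in Tg7 and 0.00175% in Wild-type. In macrophages it was 0.105% in Tg7, where 1 of 23 cells was at 1% or more, and 0.00167% in Wild-type. Whether free RNA added to the Ppy of Sst cells was not tested. Gcg cells held 0.164% Ppy in Tg7 and 0.0555% in Wild-type, but those were defined with Ppy under 1%.

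Pyy, which encodes peptide YY, was present in every Sst cell, with a median of 3.95% in Tg7 (0.863 to 15.5) and 3.01% in Wild-type (0.348 to 9.14). Iapp, the gene of islet amyloid polypeptide that β-cells co-secrete with insulin, had a median of 2.68% in Tg7 (0.332 to 5.51) and 1.84% in Wild-type (0.197 to 8.24). Ghrelin (Ghrl) had no UMI in any Sst cell, a limit of 12% in Tg7 and 6.67% in Wild-type. Pooled over all Sst cells, Ppy was 10.3% of UMIs in Tg7 and 2.80% in Wild-type. In the low-Gcg Sst cells, which exclude the 2 cells richest in Ppy, it was 3.03% in Tg7 and 3.25% in Wild-type. The pooled excess of Ppy in Tg7, 3.88-fold on the non-hormone scale (3.81 to 3.95), was therefore 0.98-fold without the Gcg-rich and Ppy-rich cells.

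**Figure D3:**
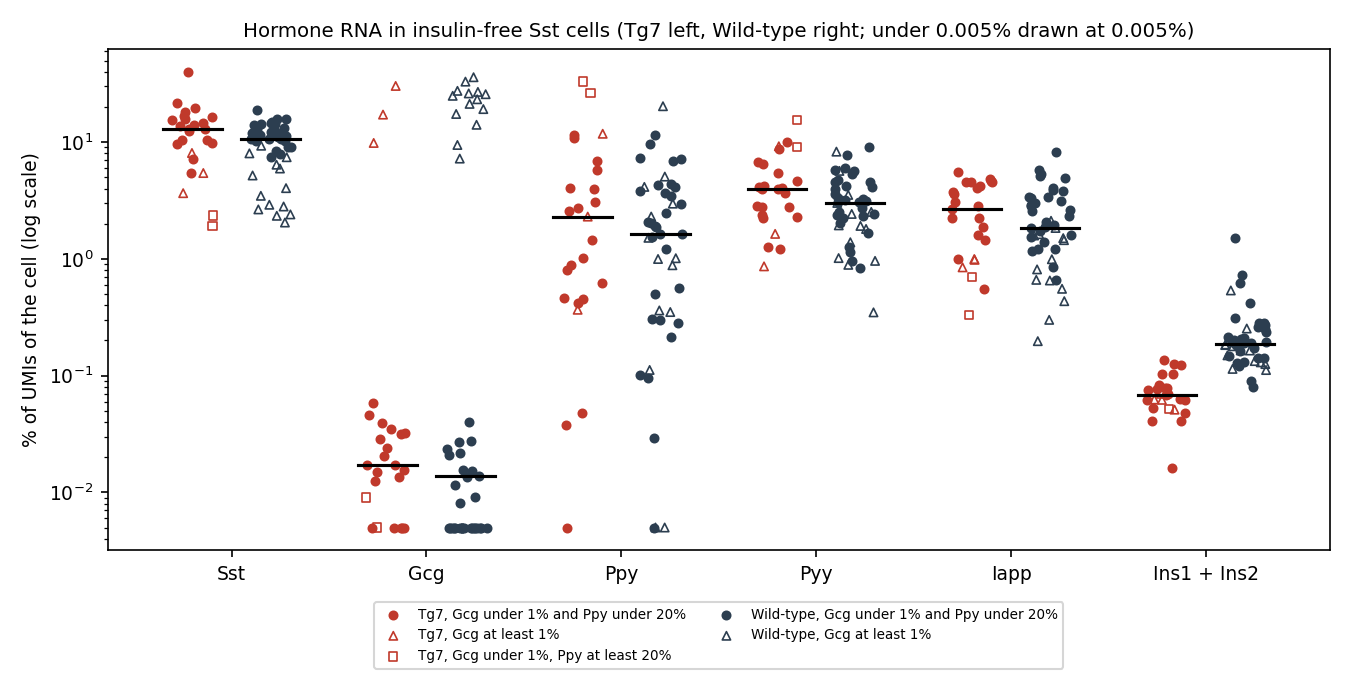
Share of the UMIs of each Sst cell (vertical, log scale) taken by Sst, Gcg, Ppy, Pyy, Iapp and insulin, with Tg7 cells left and Wild-type cells right of each tick and a line at the median. Sst medians are 12.8% in Tg7 and 10.7% in Wild-type, Gcg splits into 3 Tg7 and 14 Wild-type cells at 7.23% or more and the rest under 1%, and Ppy spreads from 0 to 33.1%.

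The δ-cell programme was read as the genes at least 2-fold higher in Sst cells than in both Gcg cells and insulin cells, in both libraries. Gcg cells (133 in Tg7, 126 in Wild-type) had Gcg at 1% or more, and insulin cells (486 in Tg7, 480 in Wild-type) had insulin at 3% or more, each without the other hormones. Of 3654 genes with enough UMIs, 20 met this (0.547%). They are described below by what each is known to do. Among the 6 measured genes of the δ-cell marker list, 4 were higher (Arg1, Cd24a, Ly6h and Rbp4) and none was lower.

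Rbp4, the carrier protein of retinol, was found in every Sst cell. Tg7 Sst cells gave 951 UMIs and Wild-type Sst cells 2311. Its level over cells had a median of 55.9 UMIs per 10000 non-hormone UMIs in Tg7 (9.41 to 191) and 53.7 in Wild-type (10.2 to 186), so the cells of the 2 libraries overlapped over almost the whole range. Pooled levels were 53.6 in Tg7 and 48.2 in Wild-type Sst cells, 14.9 and 15 in Gcg cells, and 1.85 and 0.46 in insulin cells. The level in Sst cells was 3.61 times that in Gcg cells for Tg7 (3.33 to 3.91) and 3.21 times for Wild-type (3.02 to 3.41). Thus Rbp4 set Sst cells apart from insulin cells much more than from Gcg cells.

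Ly6h, which encodes a membrane-anchored protein of the Ly6 family, had the largest smallest ratio of the 20 genes, 88.9. It had 67 UMIs in 17 of 25 Tg7 Sst cells and 155 UMIs in 33 of 45 Wild-type Sst cells. It had none in the Gcg cells of either library, so its level was at least 141-fold higher in Sst cells in Tg7 and at least 130.3-fold higher in Wild-type, taking 3 UMIs over all Gcg cells as the floor. Against insulin cells its level was 88.9-fold higher (58.7 to 137) in Tg7 and 126-fold higher (79.9 to 210) in Wild-type. Over single Sst cells it ranged from 0 to 16.2 in Tg7 and from 0 to 14.9 in Wild-type, with medians of 2.27 and 2.61.

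Hhex had 34 UMIs in 21 of 25 Tg7 Sst cells and 119 UMIs in 40 of 45 Wild-type Sst cells. Its level was 1.92 in Tg7 and 2.48 in Wild-type Sst cells, against 0.03 in the insulin cells of each library, 66.8-fold higher (38.7 to 117) in Tg7 and 97.0-fold (60.7 to 163) in Wild-type. Gcg cells held 1 Hhex UMI in Tg7 and 0 in Wild-type. Hhex was not among the 20 genes because its 35 UMIs over the Sst and Gcg cells of the Tg7 library were under the minimum of 50. Arg1, the arginase that hydrolyses arginine to ornithine and urea, had a level of 2.76 in Tg7 and 2.38 in Wild-type Sst cells. That was 4.82-fold (3.25 to 7.11) the Gcg-cell level in Tg7 and 2.96-fold (2.24 to 3.93) in Wild-type, and 32.5-fold and 93-fold the insulin-cell level.

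Other δ-cell markers were rarer. Ptprz1, a receptor tyrosine phosphatase, had a level of 1.35 in Tg7 and 0.60 in Wild-type Sst cells and no UMI in Gcg cells. Ffar4, the receptor for long-chain fatty acids, had 1.24 in Tg7 and 1.29 in Wild-type Sst cells, with 22 UMIs in 12 Tg7 cells and 62 in 33 Wild-type cells. For Spock3, a secreted proteoglycan, Tg7 Sst cells gave 7 UMIs and Wild-type Sst cells 32, and Gcg cells none.

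Depth alone could make a gene seem present in more cells, so each cell was also thinned to 1000 non-hormone UMIs. By this measure Rbp4 was detected in 24 of 25 Tg7 Sst cells (96%) and 44 of 45 Wild-type Sst cells (97.8%), against 62.8% and 68.5% of the Gcg cells. In endothelial cells it was found in 0 of 9 in Tg7, a limit of 33.3%, and in 1 of 23 in Wild-type. Hhex was detected in 7 of 25 Tg7 Sst cells (28%, 12.1 to 49.4) and in 14 of 45 Wild-type Sst cells (31.1%, 18.2 to 46.6), where 84% and 88.9% had a UMI before thinning. The share expected over all possible draws was 24.7% in Tg7 and 24.4% in Wild-type. Ly6h was detected in 28% of Tg7 and 31.1% of Wild-type Sst cells, and in 0 of 129 Tg7 Gcg cells and 0 of 124 Wild-type Gcg cells, limits of 2.33% and 2.42%. At equal depth the 3 genes were therefore found in similar shares of Tg7 and Wild-type Sst cells, with wide intervals. Thinned macrophages had 0 of 23 cells with Hhex, Ly6h or Rbp4 in Tg7 and 0 of 8 in Wild-type. Unthinned, the Tg7 macrophages had a median of 4709 UMIs and those of Wild-type 7491.5, and Hhex had a UMI in 37.5% of the 8 Wild-type macrophages.

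The surface and adhesion genes of the programme were led by Tspan8, a tetraspanin, with a level of 6.09 in Tg7 and 4.0 in Wild-type Sst cells. Its level was between 18.6 and 29.3 times those of the other 2 cell classes. Cd24a, a glycosylated surface protein, had 5.35 in Tg7 and 7.75 in Wild-type Sst cells and 2 UMIs in the Gcg cells of each library. It was not particular to islet cells, since every endothelial cell had a Cd24a UMI, 9 of 9 in Tg7 and 23 of 23 in Wild-type. Fam159b had 4.68 in Tg7 and 5.13 in Wild-type Sst cells and at most 1 UMI in the Gcg cells of a library. Folr1, a folate receptor, had 4.11 in Tg7 and 2.27 in Wild-type Sst cells. It belongs to the γ-cell marker list, of which 3 genes were measured and 1, Folr1, met the rule. Fxyd3, a regulator of the sodium pump, had 1.92 in Tg7 and 1.48 in Wild-type Sst cells, and Ramp1, the partner protein of the receptor for calcitonin gene-related peptide, had 2.03 in Tg7 and 1.15 in Wild-type.

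Among the genes of protein folding and stress protection, Clu, the extracellular chaperone clusterin, was in every Sst cell. Its median level over cells was 11.7 in Tg7 (2.27 to 36.5) and 9.30 in Wild-type (0.569 to 31.2). Pooled, it was 10.3 in Tg7 and 7.67 in Wild-type Sst cells, 1.82 and 1.01 in Gcg cells, and 2.94 and 1.0 in insulin cells. Hspb1, the small heat shock protein Hsp27, had 4.11 in Tg7 and 7.30 in Wild-type Sst cells. It was uneven between cells, with a median of 1.82 and a highest cell of 22.7 in Tg7, and a median of 2.32 and a highest cell of 61.8 in Wild-type. Gpx1, the cytosolic glutathione peroxidase, had 5.75 in Tg7 and 6.27 in Wild-type Sst cells and was detected in 23 of 25 and in all 45. Its lowest ratio, 2.0 over Wild-type insulin cells, was the smallest of the 20 genes.

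Genes of vesicle trafficking and of the nucleus completed the programme. Stxbp5l, the tomosyn-2 inhibitor of vesicle fusion, had 2.03 in Tg7 and 1.86 in Wild-type Sst cells, between 5.61 and 20.9 times the levels of the other 2 cell classes. Auts2, a nuclear regulator of neuronal development, had 5.07 in Tg7 and 5.36 in Wild-type Sst cells. Smarca2, an ATPase of the SWI/SNF chromatin remodellers, had 3.16 in Tg7 and 2.73 in Wild-type. Smpd3, Rhoc, Pdcl3, Gprasp1 and Phyhipl also met the rule, with ratios between 2.02 and 6.14. A ranking by the smallest ratio kept only genes with at least 50 UMIs in the Sst cells of each library. Of its 15 highest genes, Meis2, Epcam and Hspa1b did not reach 2-fold over both classes in both libraries. Their smallest ratios were 1.93, 1.75 and 1.91.

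**Figure D4:**
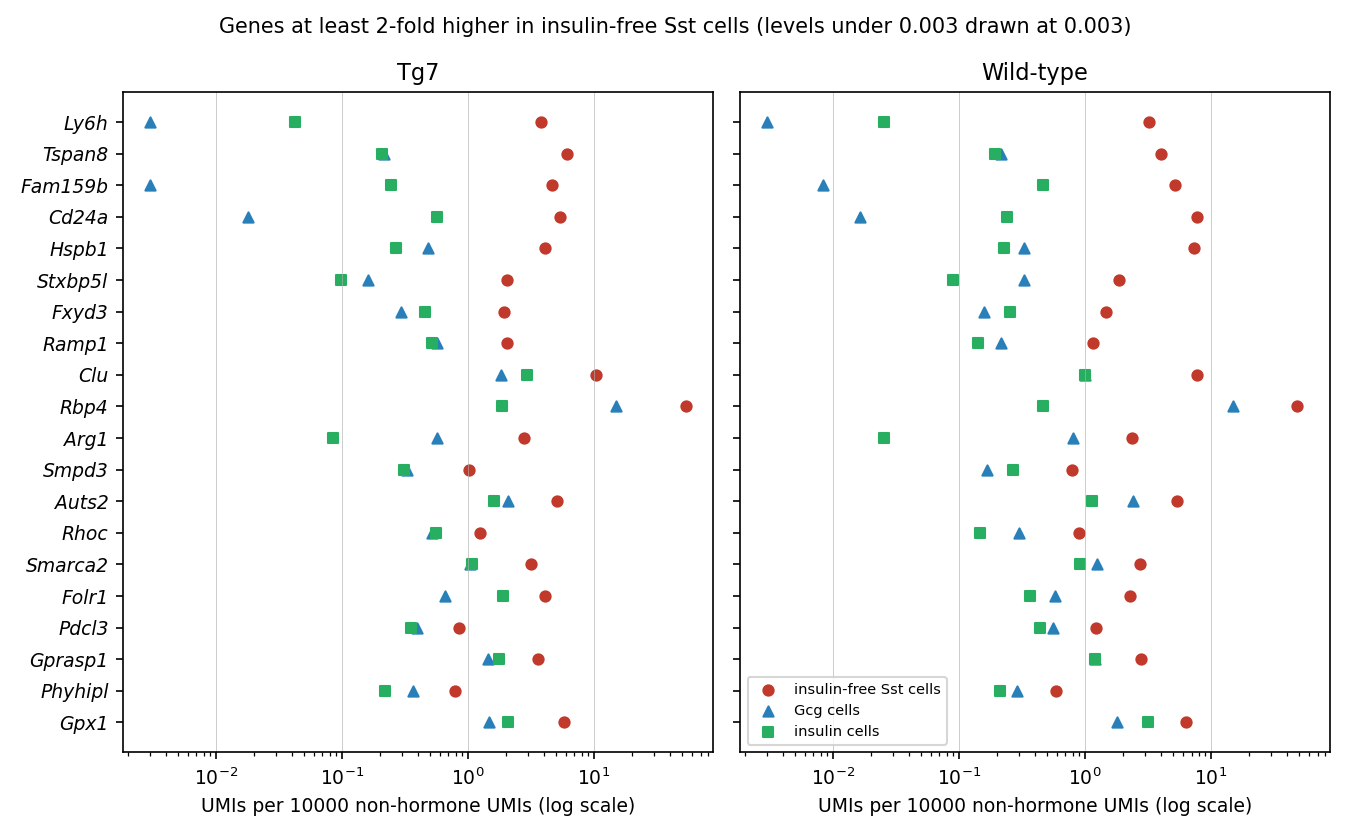
Levels of the 20 programme genes (horizontal, UMIs per 10000 non-hormone UMIs, log scale) in Sst cells (circles), Gcg cells (triangles) and insulin cells (squares) of the Tg7 (left) and Wild-type (right) library, ordered by the smallest of their 4 ratios. Sst cells lie to the right in each row, from 53.6 in Tg7 and 48.2 in Wild-type for Rbp4 down to 0.79 in Tg7 and 0.58 in Wild-type for Phyhipl.

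Genes could also mark Sst cells by a low level, with 13 genes at least 2-fold lower than in both other classes in both libraries (0.356%). Slc30a8, the zinc transporter of insulin granules, had 0.73 in Tg7 and 2.44 in Wild-type Sst cells. In Gcg cells it had 7.19 in Tg7 and 7.34 in Wild-type, and in insulin cells 1.90 and 9.96. Cadps, which primes dense-core vesicles, had 0.39 in Tg7 and 0.52 in Wild-type Sst cells and was 0.39-fold and 0.29-fold the Gcg-cell level. Ddc, the aromatic amino acid decarboxylase, had 0.51 in Tg7 and 0.67 in Wild-type Sst cells, against 2.63 and 3.79 in insulin cells. The others were Dapl1, Spc25, Ociad2, Nell1, Csrp1, Pabpc4, Slc7a8, Skap1, Rasgrf2 and Lbh. In the low-Gcg Sst cells 42 of 3365 genes were lower than in both other classes (1.25%), all 13 among them.

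In the low-Gcg Sst cells the programme held 33 of 3365 measured genes (0.981%), and 14 of the 20 genes named above were among them. Rbp4 was then 5.07-fold the Gcg-cell level in Tg7 and 4.49-fold in Wild-type. Genes that met the rule only in these cells, named after their values were seen, included the calcium-binding S100a10, with 2.98 in Tg7 and 4.49 in Wild-type, and Car8, a carbonic anhydrase-related protein, with 2.48 in Tg7 and 3.09 in Wild-type. The adhesion protein Epcam had 6.55 in Tg7 and 7.34 in Wild-type low-Gcg Sst cells. Meis2, a homeobox factor that is also on the γ-cell marker list, had 4.66 in Tg7 and 4.92 in Wild-type. Ly6h was not measured among the low-Gcg cells of both libraries because of its count.

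Of 12 measured transcription factors of the islet list none met the 2-fold rule in either direction in all Sst cells, and Meis2 met it in the low-Gcg cells. Hhex, described above, belongs to that list but had too few UMIs to be measured. Isl1, needed for endocrine maturation, had 3.83 in Tg7 and 3.65 in Wild-type Sst cells, 1.60-fold and 1.76-fold the Gcg-cell level. Pax6 had 3.89 in Tg7 and 3.65 in Wild-type. Pdx1, which in mice is kept on in β- and δ-cells, had 11 UMIs (0.62) in Tg7 and 23 UMIs (0.48) in Wild-type Sst cells and 1 UMI in the Gcg cells of each library. In insulin cells Pdx1 had 0.46 in Tg7 and 1.03 in Wild-type. Nkx6-1, a β-cell factor, had 0.34 in Tg7 and 0.35 in Wild-type Sst cells, against 1.88 and 4.66 in insulin cells.

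Among genes of the neuronal list, Gap43, a growth cone protein, had 1.86 in Tg7 and 1.33 in Wild-type Sst cells and no UMI in Gcg cells. In insulin cells Gap43 had 0.15 in Tg7 and 0.01 in Wild-type. Gap43 was picked out here after its values were seen. None of the 9 measured genes of that list met the rule. Of the receptor list 5 genes were measured and none met it. P2ry1, a purinergic receptor picked out in the same way, had 15 UMIs in 14 Tg7 cells and 19 UMIs in 14 Wild-type cells and none in Gcg cells.

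Tg7 Sst cells were then set against Wild-type Sst cells. Of 2352 genes with at least 50 UMIs over both libraries, 19 were at least 2-fold higher in Tg7 (0.808%) and 50 at least 2-fold lower (2.13%), and the median log2 ratio was -0.0016. In the low-Gcg Sst cells 10 of 1012 genes were higher (0.988%) and 20 lower (1.98%). Only 2 of those 10 and 6 of those 20 were among the genes called in all Sst cells. Leaving out the Gcg-rich and Ppy-rich cells changed ratios and also cut the measured genes from 2352 to 1012. What each change did to the calls was not separated. Most ratios of single genes are therefore given for both sets of cells.

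Most δ-cell programme genes described here lay within 2-fold of the Wild-type level in Tg7. Rbp4 was 1.11 times that level (1.03 to 1.20), and 1.12 times (1.02 to 1.22) in the low-Gcg cells. Hhex was 0.77 times (0.51 to 1.14), Ly6h 1.17 times (0.86 to 1.57) and Arg1 1.16 times (0.81 to 1.64), and all 3 intervals include 1. Among low-Gcg cells Hhex was 0.83 times (0.52 to 1.31), Ly6h 0.88 times (0.61 to 1.25) and Arg1 1.15 times (0.73 to 1.77). Cd24a was lower in Tg7, at 0.69 times (0.55 to 0.87) in all and 0.69 times in low-Gcg Sst cells. Clu was 1.34 times the Wild-type level in all Sst cells (1.12 to 1.61) and 1.15 times (0.92 to 1.42) in the low-Gcg cells, and Ramp1 1.77 times (1.13 to 2.74) and 1.53 times (0.91 to 2.53). Hspb1 was lower in Tg7, at 0.56 times (0.43 to 0.73), and 0.44 times (0.31 to 0.60) in the low-Gcg cells. Tspan8 and Folr1 were 1.52 and 1.81 times the Wild-type level in all Sst cells but 0.95 and 0.90 times in the low-Gcg cells. Of the 9 measured δ-cell markers, 1 was at least 2-fold higher in Tg7 and none lower, with a median log2 ratio of 0.22, where 0.808% of all genes were higher. In the low-Gcg cells none of 6 measured markers passed 2-fold and the median was -0.044. The higher one was Ptprz1, at 2.24 times (1.25 to 3.98) with 24 UMIs in Tg7 and 29 in Wild-type, and 1.83 times in the low-Gcg cells.

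Among the epithelial genes Krt8 and Cldn4 were at least 2-fold lower in Tg7 Sst cells. They were 2 of 11 measured genes of the list, where 2.13% of all genes were lower. In all, 9 of the 11 were below the Wild-type level, with a median log2 ratio of -0.44, where 1178 of all 2352 measured genes were below it. In the low-Gcg cells 1 of 9 was at least 2-fold higher and 2 lower, with a median of -0.57. Over all genes measured there 0.988% were higher and 1.98% lower, with a median of 0.050. Krt8, a keratin of simple epithelia, gave 146 UMIs over the Tg7 and 919 over the Wild-type Sst cells. Its level over cells had a median of 7.03 in Tg7 (0 to 18.7) and of 18.5 in Wild-type (0 to 102), so the ranges overlapped but the lower quartile of Wild-type cells, 8.99, lay above the Tg7 median. The ratio was 0.43 (0.36 to 0.51), and 0.33 (0.26 to 0.43) in the low-Gcg cells. Cldn4, a claudin of tight junctions, had 10 UMIs in 7 of 25 Tg7 cells and 158 UMIs in 31 of 45 Wild-type cells, a ratio of 0.17 (0.08 to 0.32). In the low-Gcg cells it was 0.16 (0.04 to 0.42). Both genes were lower in the other classes too, Krt8 at 0.24 in insulin cells and 0.51 in Gcg cells, and Cldn4 at 0.15 in insulin cells and 0.25 in Gcg cells. Krt7, a ductal keratin, was higher in Tg7, at 1.83 times the Wild-type level (1.22 to 2.72), and 2.20 times (1.28 to 3.78) in the low-Gcg cells. E-cadherin (Cdh1) was 1.26 times (0.78 to 2.0) and Cldn3 0.64 times (0.29 to 1.30) the Wild-type level, and 1.35 and 0.49 times in the low-Gcg cells. Ovol2 and Zeb2, regulators of the epithelial state, had no UMI in the Sst cells of either library.

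Several heat shock genes, picked out because their values were seen to be low in Tg7, form no fixed list and are given as single genes. Hspa1b, an inducible Hsp70 gene, was found in 12 of 25 Tg7 and 30 of 45 Wild-type Sst cells, with a highest cell of 29.1 in Tg7 and 51.0 in Wild-type. It was 0.35 times the Wild-type level (0.26 to 0.47), and 0.36 times (0.25 to 0.50) in the low-Gcg cells. Its near-identical copy Hspa1a was 0.48 times (0.35 to 0.63), and 0.41 times in the low-Gcg cells, and reads of the 2 genes may be split between them. Dnajb1, a partner chaperone of Hsp70, was 0.60 times the Wild-type level (0.47 to 0.75) in all Sst cells and 0.48 times (0.35 to 0.65) in the low-Gcg cells. Hspa1b was lower in Tg7 in the other classes as well, at 0.48 times in insulin cells and 0.43 times in Gcg cells. Tm4sf4, a tetraspan membrane protein picked out in the same way, was 0.45 times the Wild-type level in all Sst cells and 0.49 times in the low-Gcg cells, with 0.46 in insulin cells and 0.60 in Gcg cells.

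Among the immediate early genes, Jund was lower and Egr1 higher in Tg7. Jund, a subunit of the AP-1 factor, had a median level of 39.3 in Tg7 (4.06 to 59.6) and of 59.3 in Wild-type Sst cells (17.3 to 112). Its ratio was 0.68 (0.63 to 0.74), and 0.59 (0.53 to 0.66) in the low-Gcg cells. Egr1, a zinc-finger factor, had a median of 11.2 in Tg7 and of 6.47 in Wild-type, a ratio of 1.70 (1.43 to 2.02), and 1.66 (1.32 to 2.08) in the low-Gcg cells. Over the list, 15 genes were measured, none was at least 2-fold higher and 1 was lower, and the median log2 ratio was -0.091. Of all measured genes 2.13% were lower, with a median of -0.0016.

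Mt1, a zinc-binding metallothionein, was the most abundant of the named non-hormone genes at least 2-fold higher in Tg7. It gave 490 UMIs over the Tg7 and 469 over the Wild-type Sst cells, with a median over cells of 15.3 in Tg7 (0 to 96.6) and of 7.19 in Wild-type (0 to 40.6). The ratio was 2.82 (2.48 to 3.21), and 2.09 (1.69 to 2.57) in the low-Gcg cells, where the largest Tg7 cell, with 197 UMIs, was left out. In Gcg cells and insulin cells Mt1 was lower in Tg7, at 0.60 and 0.76 times. Its relative Mt2 was 2.13 times the Wild-type level in all Sst cells but 1.17 times in the low-Gcg cells.

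Several high ratios rested on single cells. H1fx, a linker histone, was 4.97 times the Wild-type level with 36 of its 68 Tg7 UMIs in 1 cell, and 3.26 times (1.71 to 6.38) in the low-Gcg cells. Slc38a5, an amino acid transporter of α-cells, was 4.50 times the Wild-type level with 34 of 35 Tg7 UMIs in 1 cell, and among the low-Gcg cells only Wild-type held any, 5 UMIs. Spp1 was 6.86 times the Wild-type level in all Sst cells and 0.96 times in the low-Gcg cells. The others of the 10 highest, with 23 to 27 UMIs each in Tg7, were Sipa1l3 (2.33 in all and 3.42 in the low-Gcg cells), Birc2 (2.22 and 2.51), Arxes2 (2.16 and 2.88), Riok1 (2.25 and 1.16) and Ccdc88a (2.15 and 1.16). The last 2 were thus not past 2-fold in the low-Gcg cells. There H1fx and all of these others were under the minimum of 50 UMIs.

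Some of the genes lowest in Tg7 were found mainly in the Gcg-rich cells. Slc30a8 gave 13 UMIs over the Tg7 and 117 over the Wild-type Sst cells, a ratio of 0.30, but 0 and 2 UMIs over the low-Gcg cells. Tmsb15b2 was at 0.23 times the Wild-type level, with 0 UMIs in Tg7 and 1 in Wild-type among the low-Gcg cells. Ttr, transthyretin, named after its values were seen, was 0.42 times the Wild-type level in all and 2.20 times in the low-Gcg cells, with 30 Tg7 and 28 Wild-type UMIs. Gc, the vitamin D-binding protein and also an α-cell marker, was 1.59 times in all and 2.71 times (1.62 to 4.61) in the low-Gcg cells. The Gcg-rich cells numbered 3 in Tg7 and 14 in Wild-type.

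Other genes had low ratios without them too, but each gene named here was then under the minimum of 50 UMIs. In all Sst cells these genes passed that minimum mainly through their Wild-type UMIs. Trpc1, a cation channel subunit, had 7 UMIs in 7 of 25 Tg7 cells and 72 UMIs in 34 of 45 Wild-type cells, a ratio of 0.26, and 0.14 (0.03 to 0.45) in the low-Gcg cells. Ahsa1, a cofactor of Hsp90, gave 8 UMIs over the Tg7 and 70 over the Wild-type Sst cells, a ratio of 0.31, and 0.10 (0.01 to 0.39) in the low-Gcg cells. Ccdc88c was at 0.16 times the Wild-type level (0.03 to 0.48) on 3 Tg7 UMIs, and Cops2 at 0.19 times. In the low-Gcg cells Cops2 was at 0.21 times (0.04 to 0.69) on 3 Tg7 UMIs and Ccdc88c had 1. Foxn3 was at 0.31 times (0.12 to 0.67) in all and 0.29 times (0.07 to 0.84) in the low-Gcg cells. Cggbp1 was at 0.35 times (0.12 to 0.83) in all and 0.29 times (0.06 to 0.98) on 3 Tg7 UMIs in the low-Gcg cells.

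**Figure D5:**
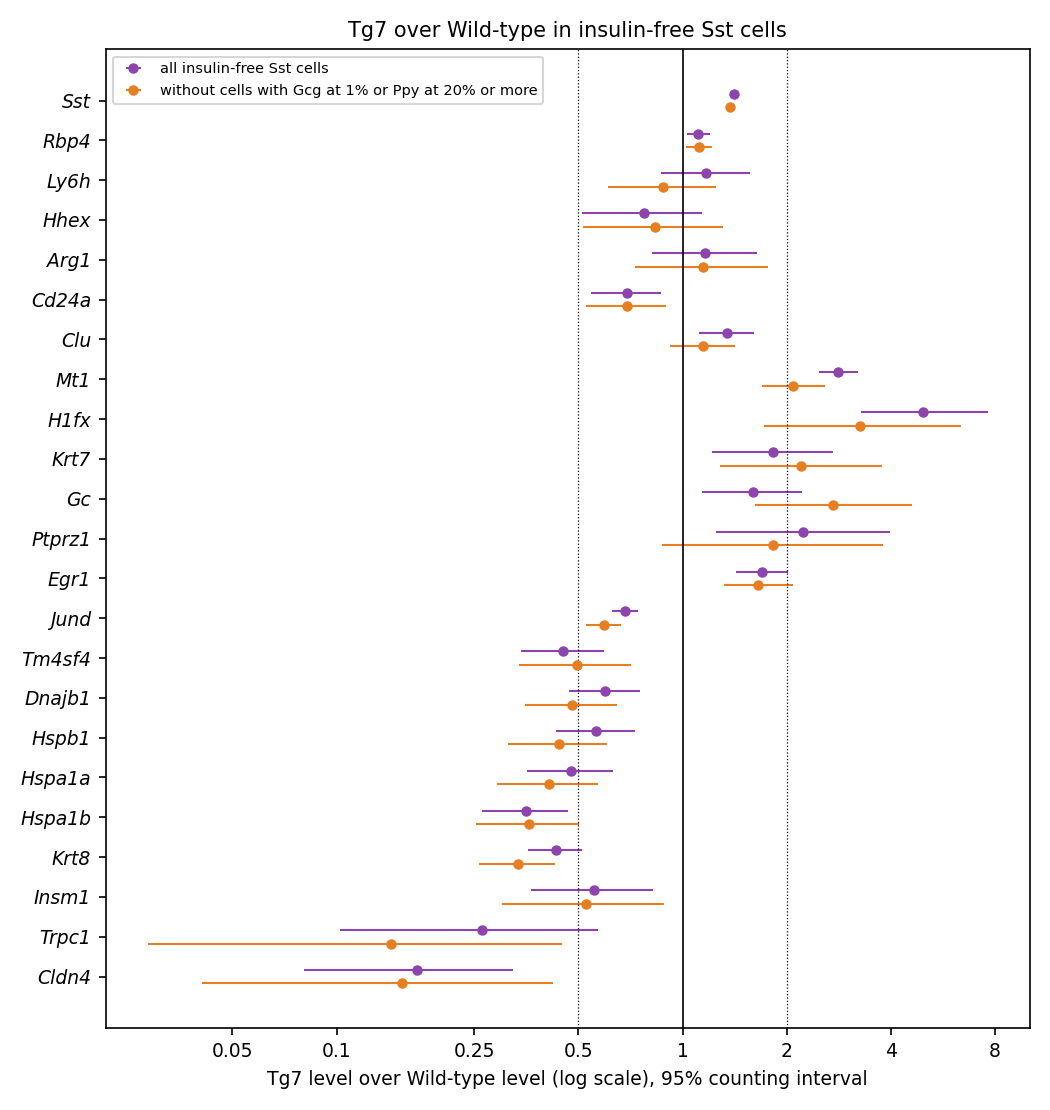
Ratio of the Tg7 to the Wild-type level (horizontal, log scale) of 23 genes in all Sst cells (upper point of each pair) and in the low-Gcg Sst cells (lower point), with 95% counting intervals that leave out variation between mice, a solid line at 1 and dotted lines at 0.5 and 2. Rbp4 lies at 1.11, Krt8 at 0.43, Cldn4 at 0.17 and Mt1 at 2.82 in all Sst cells.

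The other gene lists showed few changes past 2-fold. Over 13 measured islet transcription factors the median log2 ratio was -0.27. None was higher and 3 were lower in Tg7, where 2.13% of all measured genes were lower. Among these were Foxa2 at 0.48 times (0.20 to 1.03) and the glucose-responsive factor Mlxipl at 0.40 times (0.16 to 0.85) the Wild-type level. Among low-Gcg cells Foxa2 was at 0.16 times (0.02 to 0.66) on 2 Tg7 and 25 Wild-type UMIs, and Mlxipl at 0.32 times (0.10 to 0.83). Both genes were under the minimum of 50 UMIs there, and none of the 6 factors that were measured was past 2-fold. Insm1, a zinc-finger factor of endocrine cells, was at 0.55 times (0.36 to 0.82), and 0.53 times in the low-Gcg cells. Pax6 was at 1.07 times and Pdx1 at 1.29 times (0.57 to 2.76), and at 0.97 and 1.42 times in the low-Gcg cells. The 13 measured genes of prohormone processing and granins, the 13 of exocytosis, the 13 of the unfolded protein response and the 28 of the respiratory chain had none past 2-fold, with median log2 ratios of 0.062, -0.078, 0.038 and 0.16. Of the respiratory chain genes 21 of 28 were above the Wild-type level, and 16 of 20 in the low-Gcg cells. Over all measured genes 1174 of 2352 were above it, and 565 of 1012 in the low-Gcg cells.

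The listed targets of miR-7 had 7 measured genes, none past 2-fold, and a median log2 ratio of -0.18 (-0.041 over 3 genes in the low-Gcg cells), against -0.0016 over all genes. Basp1, a membrane protein of that list, was 1.58 times the Wild-type level in Tg7 Sst cells (1.17 to 2.11), 1.81 times (1.22 to 2.67) in the low-Gcg cells, and 39.0 times in insulin cells. Serpine2, a protease inhibitor, gave 7 UMIs over the Tg7 and 26 over the Wild-type Sst cells, a ratio of 0.73 (0.27 to 1.72), and 0.32 (0.03 to 1.40) on 2 Tg7 UMIs in the low-Gcg cells, while the ratio in insulin cells was 146. N-cadherin (Cdh2) was at 1.08 times (0.75 to 1.53) the Wild-type level and 1.21 times in the low-Gcg cells, and the 5 measured genes of epithelial-mesenchymal transition had none past 2-fold.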

How the data were processed

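Islets were dissociated and 1 Tg7 and 1 Wild-type 10x Genomics library was sequenced. The authors deposited raw UMI counts for 1123 Tg7 and 855 Wild-type barcodes. Per the labels and methods these counts came from Cell Ranger 3.0.2 and bcl2fastq 2.17.1.14 with the mm10 build. The study removed doublets with DoubletFinder later on, and the deposited matrices were used here as they were, after checking them with Scrublet (scanpy 1.11.5). Counts were summed over the cells of a class in Python 3.11.15 and divided by the UMIs of all genes other than the 7 hormone genes. Ratios have exact conditional binomial intervals and shares Clopper-Pearson intervals (scipy 1.17.1), both at 95%. Genes with at least 50 UMIs over the compared cells were measured and called past 2-fold, and a count of 0 was set to a floor of 3 UMIs for a bound. Endothelial cells had their markers at 0.5% of UMIs or more and macrophages at 1%. The scripts were tested on simulated data. Named genes were the δ-cell markers, the 15 genes most selective for Sst cells, the 10 highest and 10 lowest ratios of Tg7 to Wild-type, the extreme members of each list, and genes the study names. Those 15 needed at least 50 UMIs in the Sst cells of each library. Hspa1a, Dnajb1, Mt2, Krt8, Tm4sf4, Ttr and Gc, and those so marked, were added after their values were seen. The members and lists were chosen with earlier results of these data known. A few genes covered by these rules are not reported here.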

Additional observations from a re-analysis of the deposited data

How the results depend on the processing

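No p-value was possible, and counts of calls follow the UMI minimum: in all Sst cells 131 genes were at least 2-fold higher and 340 lower in Tg7 with at least 20 UMIs, 6 and 13 with at least 100, and 1428 and 966 with no minimum. Cells weighted equally gave 34 higher and 84 lower, and Sst at 5% or more gave 11 and 29. Leaving out cells with Gcg or Ppy at 1% or more left 9 Tg7 and 10 Wild-type cells, with 3 genes higher and 12 lower. Leaving out cells with Gcg at 1% or more gave 11 and 21, cells with Gcg at 1% or Ppy at 20% or more gave 10 and 20, and the same with equal weights 12 and 22. The last 3 alternatives were chosen after seeing the data. The programme held 64 genes on the scale of all UMIs, 33 with equal weights, 35 without cells with Gcg or Ppy at 1% or more, and 33 in the low-Gcg cells. At 2000 non-hormone UMIs Rbp4 was found in 100% of Tg7 and 100% of Wild-type Sst cells.

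The median log2 ratio of the α-cell list was -0.28 over 4 measured genes in all Sst cells and 1.29 over 2 in the low-Gcg cells, so its sign turned. In all Sst cells it was -1.24 with at least 100 UMIs and -0.81 with no minimum, and it was -1.69 without the 3 deepest cells of each library. The δ-cell list had -0.42 and the epithelial list -1.18 without cells with Gcg or Ppy at 1% or more, and the δ-cell list -0.33 without cells with Gcg at 1% or more. Single genes that turned round (log2 ratios) included Ppy, -0.043 with Sst at 5% or more and -0.027 in the low-Gcg cells. Without cells with Gcg or Ppy at 1% or more they included Spp1 at -2.20, Gcg at 1.52, Pyy at -0.23, Mt2 at -0.39 and Ttr at 1.44. Without the 3 deepest cells they included Slc38a5 at -1.04 and Mt2 at -0.86, and without cells with Gcg at 1% or more Slc38a5 at -1.74, Gcg at 1.13 and Ttr at 3.24. In the low-Gcg cells they included Spp1 at -0.061, Gcg at 1.41 and Ttr at 1.14, and with equal weights -0.084, 1.43 and 0.99. Tspan8, Folr1 and Ly6h also fell from above to below the Wild-type level in the low-Gcg cells, and Slc38a5 had no Tg7 UMI there. The cause was not tested. No paired analysis was possible because each group has 1 library.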
